A study of Mus musculus with 2 samples.

Results

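The genes described here form the cell's defence against oxidants and free metal ions: the NRF2 pathway, glutathione and thioredoxin metabolism, the enzymes that remove superoxide and peroxides, the enzymes that supply NADPH, and the metal-binding proteins metallothionein and ferritin. They were 41 genes listed by name and role. The rule that picks them uses no measured value, but the list was drawn up with earlier results of these data known. A gene was measured when the platform annotation tied at least 1 probe set to that gene alone, which held for 37 of the 41, out of 18193 genes measured on the arrays. Where several probe sets served a gene, the brightest over both arrays (highest mean log2 signal) gave its value. Of the 37 genes, 34 lay at or above the signal floor, set at the median signal over all probe sets (an intensity of 54.6), and Sod3, Gsta4 and Mgst1 lay below it. No probe set was tied to Prdx1, Prdx5, Prdx6 or G6pdx alone, so these genes have no value in the comparison.

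The cells were rib chondrocytes, the makers of cartilage, from mice at 5 days of age, and their RNA was hybridised to Affymetrix Mouse Genome 430 2 arrays. There were 2 arrays, 1 from wild-type mice and 1 from mice carrying the V156D knock-in mutation of Matn1, the gene of the cartilage matrix protein matrilin-1. In both, the ribs were freed of their cells with collagenase, and the RNA came from a pool of 5 littermates, as far as the design text gives it. The labels do not name strain, sex or zygosity. With 1 pool per genotype there was no replicate error and no test, and a difference below is a difference between 2 arrays, with the number of arrays limiting its precision. Ratios are log2 of mutant over wild-type intensity, so that a gene called higher is brighter in the mutant array.

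Markers of the labelled cell type were present in both pools, and other signals differed between them. All 10 chondrocyte markers listed reached the floor, with a median ratio of 0.03, from Sox9 at -0.29 to Chad at 0.07, and Col2a1, the main cartilage collagen, read 27997 in the wild-type array against 29057 in the mutant array. Of 11 fibroblast and tendon markers that reached the floor, 10 were higher, 7 of them at least 1.5-fold. Their median was 1.34, from Pdgfra at -0.10 to Kera at 1.79, and their summed intensities were 36640 and 60872. Scx, among the 10, read 50.1 and 73.0 and reached the floor only through the mutant array. All 12 heat shock genes were lower, 7 of them at least 1.5-fold, with a median of -0.68, from Dnaja4 at -1.48 to Hspa1b at -0.15, and sums of 114485 and 84883. Endothelial markers were higher for 6 of the 7 that reached the floor, 3 of them at least 1.5-fold, from Egfl7 at -0.19 to Cdh5 at 1.39, though Emcn, among those 3, read 38.2 and 96.4 and reached the floor only through the mutant array, and the sum over all 10 measured was 900 and 1230. Muscle markers were lower for 5 of 6, from Myod1 at -0.74, the only gene of that list past 1.5-fold, to Des at 0.45, and Myod1, at 86.8 and 52.0, reached the floor only through the wild-type array, with sums over all 9 measured of 2703 and 2078. Macrophage markers summed to 1958 and 1649, with 4 of 10 at the floor or above, from Cd14 at -0.34 to Csf1r at 0.17. Osteoblast markers summed to 193 and 222, with 2 of 4, Sp7 at 0.09 and Alpl at 0.24, and erythroid markers to 242 in each array, with 1 of 6, Alas2 at 0.31. None of these markers was at 0, but a value above 0 does not by itself show that the transcript was present. In the mutant pool the X-linked Xist transcript was lower, 1.55-fold, and Eif2s3y, from the Y chromosome, was higher, 2.13-fold. The part that any of these differences plays in the values below was not tested.

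NRF2, encoded by Nfe2l2, is a transcription factor that KEAP1 holds for degradation through a CUL3 ubiquitin ligase. Oxidants and electrophiles modify cysteines of KEAP1, and NRF2 then accumulates, pairs with a small MAF protein and binds antioxidant response elements (AREs) near the genes of glutathione synthesis, the thioredoxin system, haem breakdown and the pentose phosphate pathway. Metallothioneins bind zinc and copper and are switched on by the zinc-sensing factor MTF1 through metal response elements (MREs).

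Strings that resemble these short elements can be seen in the sequence before some of the genes. RefSeq start sites of GRCm38.p6 were available for 35 of the 41 genes, with 46 start sites in all, and Gclc, Gsr, Gsta4, Hmox1, Prdx6 and Sod3 were not among them. The 250 bases before each start were searched on both strands for the ARE core TGACNNNGC and the MRE cores TGCACNC and TGCGCNC. Mt2 is shown because it was the only gene with both cores that also lay in the metal-binding group. Its window runs along chr8:94172368-94172617 on the plus strand up to the base before the annotated start, with both kinds of core in capitals.
Mt2: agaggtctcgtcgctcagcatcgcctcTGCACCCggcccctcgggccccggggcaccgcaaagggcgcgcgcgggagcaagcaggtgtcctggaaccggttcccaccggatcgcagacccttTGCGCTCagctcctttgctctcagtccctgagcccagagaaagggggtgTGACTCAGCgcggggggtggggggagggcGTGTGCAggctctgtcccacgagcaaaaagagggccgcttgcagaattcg
The window held 3 MRE cores, 2 of them on the strand of the gene, and 1 ARE core, which overlapped an AP-1 site (TGACTCA). The window of its neighbour Mt1 held 1 MRE core, in capitals in this stretch of the plus strand at chr8:94179056-94179082, whose start site lies inside the annotated gene.
Mt1: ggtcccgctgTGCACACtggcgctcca

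ARE cores stood before 8 of the 35 genes. The stretches of the 5 other genes that also had a value are shown with the core in capitals, each read along the strand that carries it, for Txnrd1 and Gclm before a start site inside the annotated gene.
Nfe2l2, chr2:75704885-75704913, minus strand: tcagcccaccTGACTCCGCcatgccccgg
Gclm, chr3:122245413-122245441, minus strand: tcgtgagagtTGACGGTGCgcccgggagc
Txnrd1, chr10:82859104-82859132, minus strand: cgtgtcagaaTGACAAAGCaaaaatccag
Sod1, chr16:90220696-90220724, minus strand: ggcctgagtcTGACCACGCccaccttggc
Mgst1, chr6:138140461-138140489, minus strand: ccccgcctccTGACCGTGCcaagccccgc
The other 2 of the 8 were Prdx1 and G6pdx. Such short cores are common: 10.2% of 32851 windows of the same length over all genes held an ARE core and 21.4% an MRE core, against 8 (17.4%) and 12 (26.1%) of the 46 windows of these genes. A match is a string of letters and not evidence of binding, and a window without a match says only that the letters are not in those 250 bases.

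**Figure D1:**
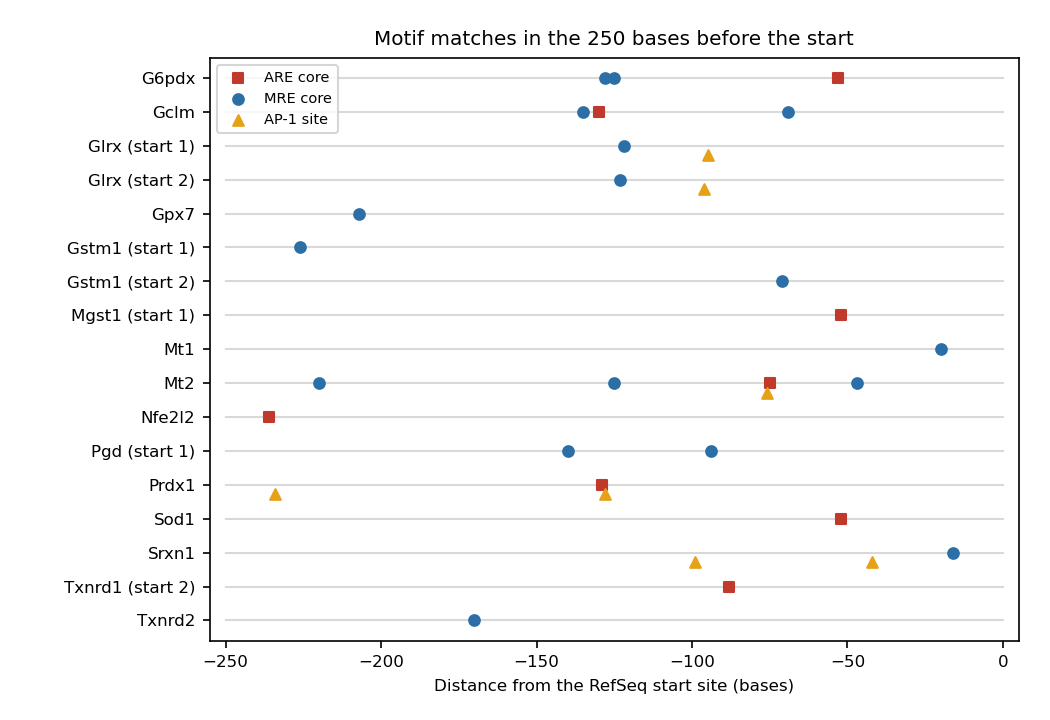
Positions of ARE cores (red squares), MRE cores (blue circles) and AP-1 sites TGACTCA or TGAGTCA (yellow triangles) in the 250 bases before the RefSeq starts of these genes, for the windows with at least 1 match; the horizontal axis is the distance from the start in bases. Mt2 held 3 MRE cores and an ARE core that coincides with an AP-1 site.

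Taken as a set, the antioxidant genes sat close to the rest of the array. Among the 34 that reached the floor, 21 were below 0 and 13 above, where 55% of all 11329 genes at or above the floor were below 0. Their median ratio was -0.04, against -0.02 for all genes. The split moved with the scaling as that of all genes did: it was 17 and 17 after quantile normalization (48.4% of all genes below 0) and after a loess fit that removes the trend of the ratio with signal (49%), and 23 and 11 when each array was centred on its median (59.4%). At 1.5-fold, 1 gene was higher (Mgst3, where the share of all genes was 1.7%) and 1 lower (Gclc, where it was 2.02%). None reached 2-fold, which 0.653% of all genes reached upward and 0.256% downward. In RNA from mixed cells, fewer cells of a type and less RNA per cell cannot be told apart.

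**Figure D2:**
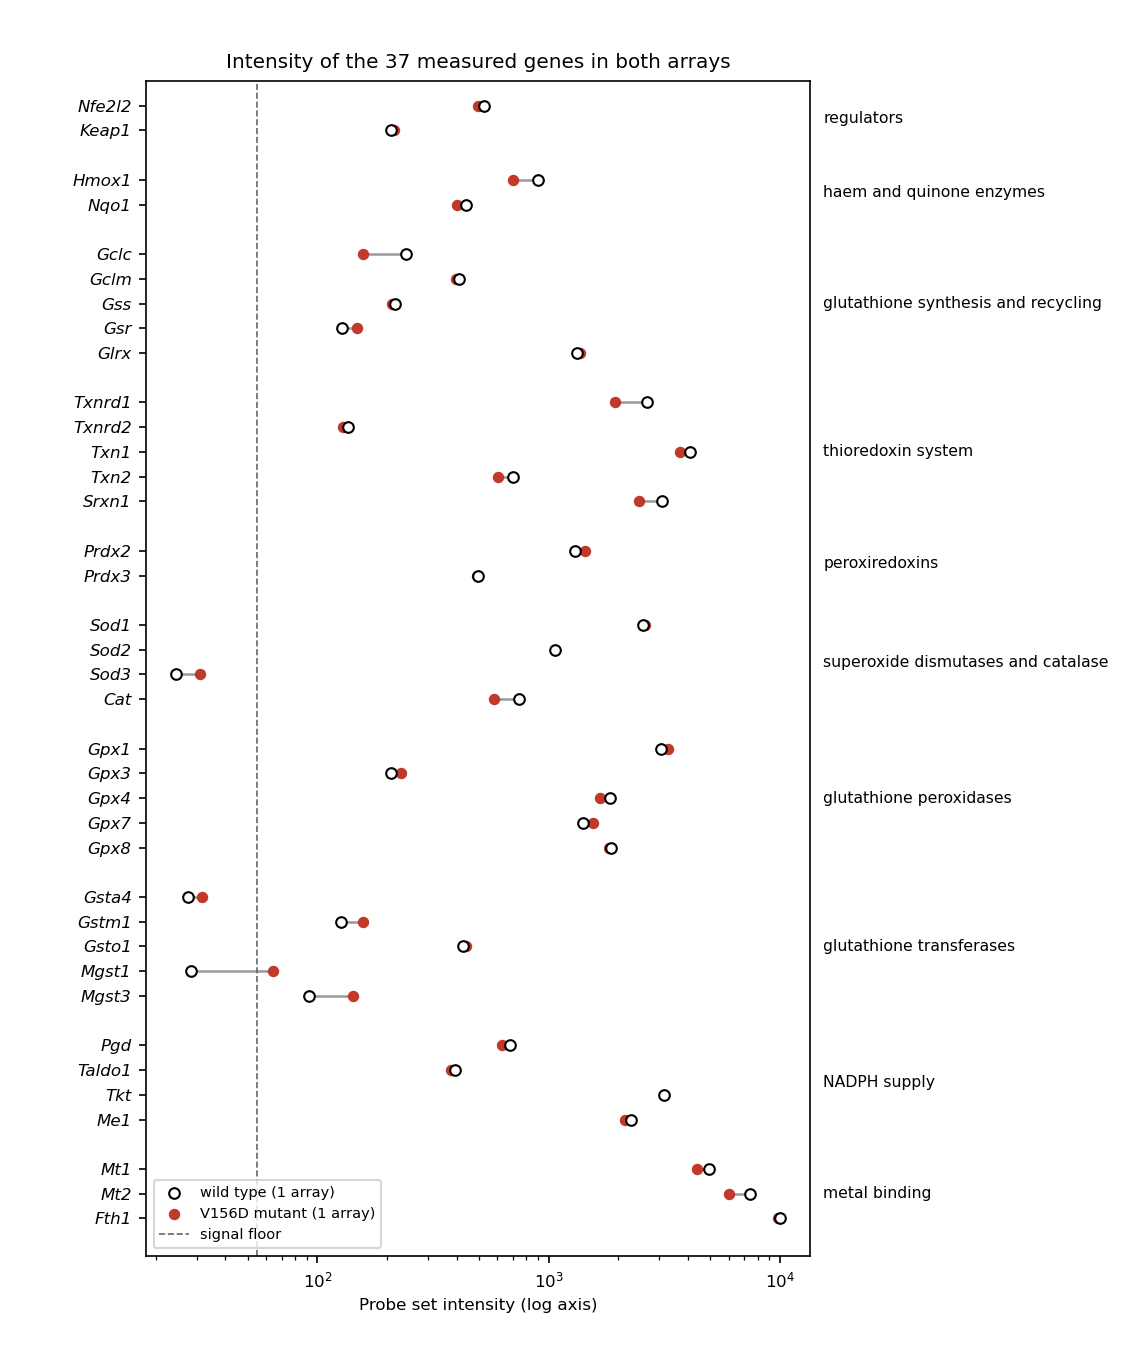
Intensity (log axis) of the 37 measured genes in the wild-type array (open circles) and the V156D mutant array (red circles), ordered by role, with the signal floor of 54.6 as a dashed line; each point is 1 array and there are no error bars. Levels of different genes come from different probes and are not comparable. Most pairs of points nearly coincide, and the widest gaps are at Mgst1, Mgst3, Gclc and Txnrd1.

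The regulators differed little between the arrays. Nfe2l2 read 527 in the wild-type array against 496 in the mutant array, a ratio of -0.09, and its second probe set, at -0.22, was also below 0. Keap1 had 207 and 213, a ratio of 0.04, and its other probe set gave 0.03. NRF2 is controlled mostly at the level of its protein, which an expression array does not measure. Of 10 genes at or above the floor that encode partners of NRF2 or take part in its turnover, 8 were below 0, with a median of -0.13. Of all genes at or above the floor, 55% were below 0. The lowest was Maff, a small MAF protein, at 4028 and 2846, a ratio of -0.50, and the highest Bach2, a repressor that competes for similar elements, at 0.19. None of the 10 differed 1.5-fold. Some signs depended on the probe set: by the mean over all its probe sets Bach2 was at -0.06. By the same mean Bach1 (0.01), Sqstm1 (0.02) and Btrc (0.05) were above 0.

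Most of the measured NRF2 targets among the 41 genes were lower, by small amounts, which a further list of targets did not share. A list of 16 of the 41 genes was drawn up as such targets, and 14 of them were measured and lay at or above the floor. Of these, 11 had ratios below 0 (78.6%, against 55% of all genes at or above the floor) and 3 above, with a median of -0.10. The number below 0 was 9 after quantile normalization, 9 after the loess correction and 12 after centring, with medians of -0.03, -0.04 and -0.12, while the shares of all genes below 0 moved as given above. It was also 9 with the mean over probe sets. The 3 above 0 were Gstm1, Gsr and Tkt, the last at 0.00. Among the other 20 genes at or above the floor 10 were below and 10 above 0, with a median of -0.01. The further list, of NRF2 targets outside the 41 genes, had 8 at or above the floor. Of those, 3 were below and 5 above 0, with a median of 0.01.

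Haem oxygenase and the quinone reductase were both lower. Hmox1, which encodes the stress-inducible enzyme that breaks down haem, read 899 in the wild-type array against 703 in the mutant array, 1.28-fold lower. Nqo1, which reduces quinones and is a classical NRF2 target, had 439 and 402, a ratio of -0.13. Each had 1 probe set, so neither value has a second reading within the arrays. Under centring, quantile normalization and the loess correction, which alone of the alternatives could turn their signs, the ratios ran from -0.38 to -0.29 for Hmox1 and from -0.15 to -0.07 for Nqo1.

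In glutathione synthesis, the catalytic subunit of the rate-limiting enzyme was lower by its brightest probe set and its partner was nearly level by its own. Gclc, the catalytic subunit of glutamate-cysteine ligase, read 243 in the wild-type array against 158 in the mutant array, 1.54-fold lower by its brightest probe set, whereas its second probe set gave -0.16 and the mean over the pair was -0.39 ± 0.32 (SD over probe sets, not over samples). Gclm, the modifier subunit of the same ligase, had 410 and 398, a ratio of -0.04, and its second probe set, below the floor, gave -0.21. For Gclc the distance past 1.5-fold rested on 1 probe set. Gss, which completes glutathione, had -0.04. Gsr, the reductase that regenerates it, had 128 and 148, a ratio of 0.21, and its other probe set gave 0.25. Glrx, a glutaredoxin that uses glutathione to reduce proteins, had 0.04.

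The 5 genes of the thioredoxin system were below 0 by their brightest probe sets, as were 55% of all genes at or above the floor. Srxn1, the sulfiredoxin that repairs overoxidised peroxiredoxins, read 3104 in the wild-type array against 2457 in the mutant array, 1.26-fold lower, with a mean of -0.30 ± 0.10 over its 4 probe sets (SD over probe sets), each below 0. Txn2, the mitochondrial thioredoxin, had 703 and 606, with a mean of -0.21 ± 0.03 over its 3 probe sets. For these 2 genes the probe sets gave a common direction. Txnrd1, the cytosolic thioredoxin reductase, had 2670 and 1936, 1.38-fold lower. Its second probe set at or above the floor, much weaker at 73.7 and 74.7, gave 0.02. Txn1, the cytosolic thioredoxin, had 4101 and 3684, a ratio of -0.15, and its weaker probe set gave 0.30, so the mean of the pair was 0.07. Txnrd2, the mitochondrial reductase, had 136 and 128, a ratio of -0.08, and its second probe set at or above the floor gave -0.22. Its probe sets below the floor gave -0.44 and 0.25. The heat shock genes, all 12 lower, moved in the same direction as this group, and their part in it was not tested.

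**Figure D3:**
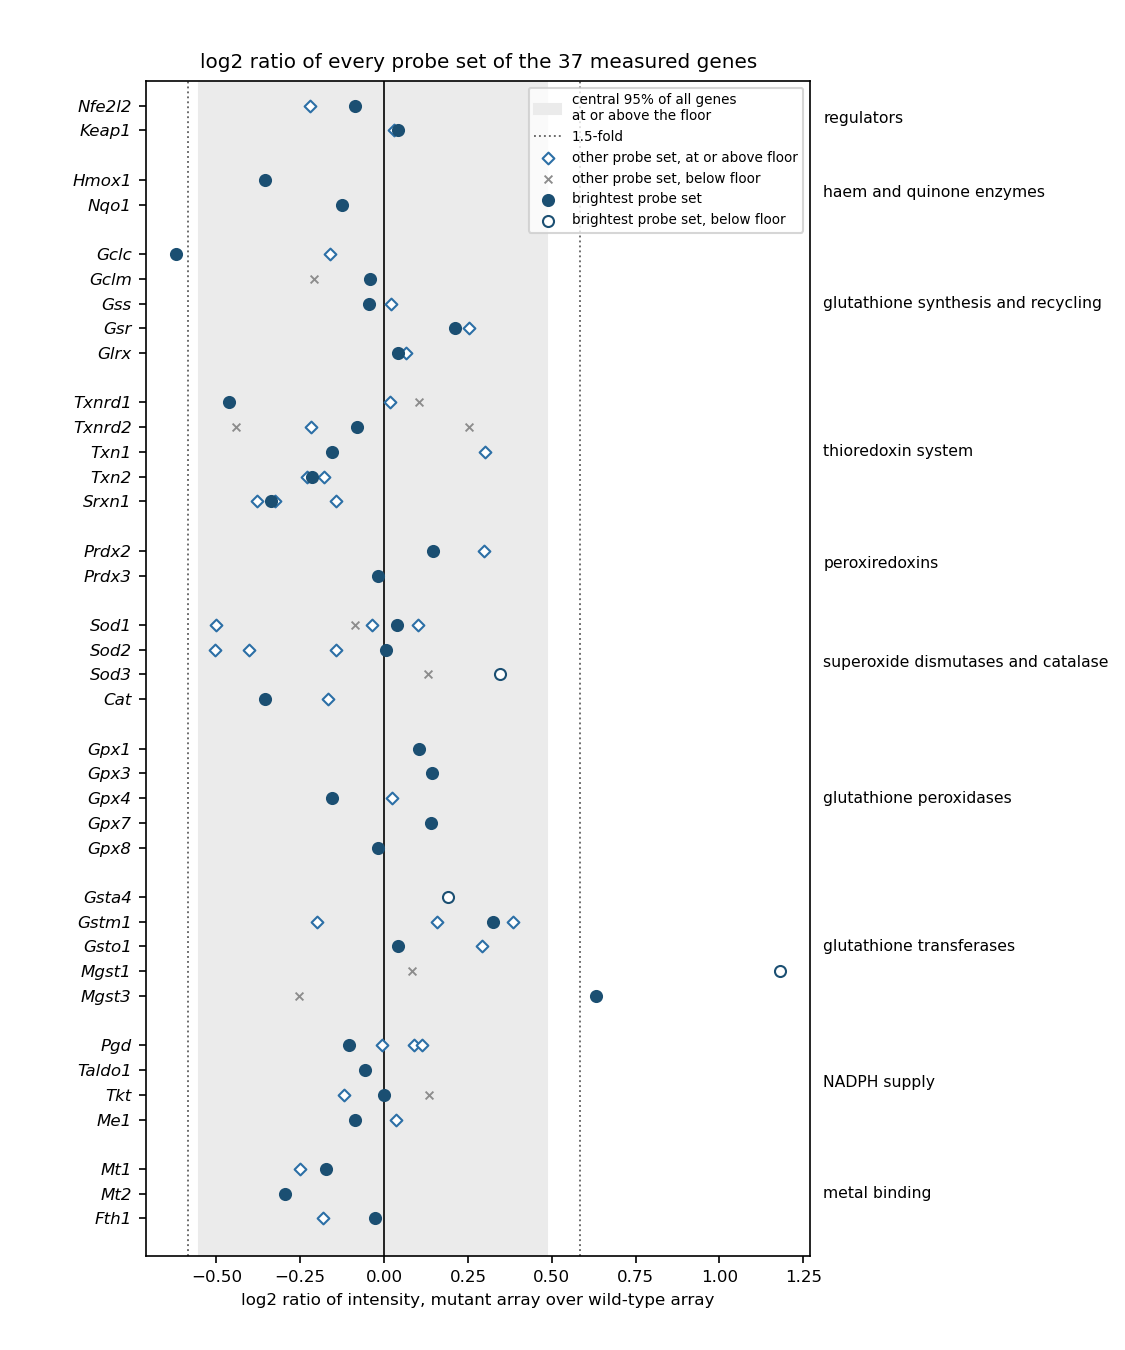
Ratio of mutant over wild-type intensity (log2) of every probe set of the 37 genes, with the brightest probe set of each gene as a filled circle (open where below the floor), other probe sets as diamonds (at or above the floor) or crosses (below it), the central 95% of all genes at or above the floor in grey (-0.55 to 0.49) and 1.5-fold as dotted lines. Srxn1 and Txn2 show probe sets of a common sign, while Txn1, Sod1, Gstm1 and Pgd have probe sets on both sides of 0.

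Of the peroxiredoxins, thiol enzymes that remove hydrogen peroxide, 2 had a value. Prdx2 read 1293 in the wild-type array against 1430 in the mutant array, a ratio of 0.15, with 0.30 from its second probe set. Prdx3, the mitochondrial form, had 496 and 490, a ratio of -0.02. Both lay inside the central 95% of all genes, -0.55 to 0.49.

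Among the enzymes that remove superoxide and hydrogen peroxide, catalase was lower and the superoxide dismutases depended on the probe set. Cat read 744 in the wild-type array against 581 in the mutant array, 1.28-fold lower, and its other probe set gave -0.17. Sod1, the cytosolic dismutase, had 2548 and 2614 by its brightest probe set, a ratio of 0.04, but its second probe set, which may match several transcripts, had 2225 and 1571, a ratio of -0.50. Sod2, the mitochondrial dismutase, had 1060 and 1063, a ratio of 0.00, whereas its other 3 probe sets were all below 0 and the mean over the 4 was -0.26 ± 0.23 (SD over probe sets). The direction of Sod1 and Sod2 was therefore not settled by these arrays. Sod3, the secreted dismutase, had 24.5 and 31.2, both below the floor.

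The glutathione peroxidases lay within 0.16 of 0. Gpx7 and Gpx3, an enzyme of the endoplasmic reticulum and a secreted plasma enzyme, both had a ratio of 0.14, Gpx7 at 1410 and 1554 and Gpx3 at 208 and 230. Gpx1, the common cytosolic peroxidase, had 3049 and 3274, a ratio of 0.10. Gpx8, a membrane enzyme of the endoplasmic reticulum, had -0.02. Gpx4, which reduces lipid peroxides in membranes, was the lowest at 1849 and 1659, a ratio of -0.16, with 0.02 from its other probe set. Among the measured genes 5 encode selenoproteins (Txnrd1, Txnrd2, Gpx1, Gpx3 and Gpx4). Of these, 3 were below 0 (60%, against 55% of all genes at or above the floor) and 2 above, with a median of -0.08. Of 7 genes needed to insert selenocysteine, 5 were below 0 (55% of all genes were) with a median of -0.19, from Secisbp2 at -0.27 to Eefsec at 0.28. Sephs1, among those 5 at -0.07, had a mean of 0.16 over its 4 probe sets.

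The glutathione transferases were the group with the highest median, 0.32 over the 3 genes at or above the floor. Mgst3, a microsomal transferase, read 92.3 in the wild-type array against 143 in the mutant array, 1.55-fold higher. Its second probe set lay below the floor and gave -0.25, so the mean over the pair was 0.19. Gstm1 had 126 and 158, a ratio of 0.32. Its 4 probe sets, all at or above the floor, averaged 0.17 ± 0.26 (SD over probe sets), with 3 above 0. Gstm genes are close relatives, and the brightest Gstm1 probe set belongs to the kind that may match several transcripts, so its signal may include other members of the family. Gsto1, an omega-class transferase, had 0.04 and 0.29 by its 2 probe sets.

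Mgst1, the other microsomal transferase, had the largest ratio of the 37 genes but a weak signal. Its brightest probe set had 28.4 in wild type, below the floor, and 64.4 in the mutant, above it, a ratio of 1.18. With an offset of 32 added to both intensities the ratio was 0.67, and the other probe set, at 10.5 and 11.1, gave 0.08. The value therefore rested on 1 probe set whose mean signal lay below the floor. Gsta4, which acts on products of lipid peroxidation, had 27.6 and 31.5, both below the floor. Most fibroblast, tendon and endothelial markers were also higher, and their part in the values of Mgst1 and Mgst3 was not tested. Of 11 other glutathione transferases at or above the floor, 8 were below 0 (55% of all genes were) and 3 above. Their median was -0.11, from Mgst2 at -0.42 to Gstt2 at 0.24.

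The NADPH-supplying genes were nearly level, from -0.11 to 0.00. Pgd, of the pentose phosphate pathway, read 677 in the wild-type array against 630 in the mutant array, a ratio of -0.11, with a mean of 0.02 ± 0.10 over its 4 probe sets (SD over probe sets). Tkt, the transketolase of the same pathway, had 3153 and 3156, a ratio of 0.00. Taldo1, its transaldolase, had -0.06, and Me1, the cytosolic malic enzyme, had -0.09. All 4 lay inside the central 95% of all genes.

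The 3 metal-binding genes were all below 0, as were 55% of all genes at or above the floor. By their brightest probe sets Mt1 and Mt2 lay further below 0 than ferritin. Mt2 read 7398 in the wild-type array against 6025 in the mutant array, 1.23-fold lower. Mt1 had 4923 and 4363, a ratio of -0.17, and its second probe set gave -0.25. The brightest Mt1 probe set is of the kind that may match several transcripts, and Mt1 and Mt2 are close relatives that lie side by side. Fth1, the ferritin heavy chain that stores iron, had 9987 and 9800, a ratio of -0.03, and its second probe set gave -0.18. Under the same scalings the ratios ran from -0.20 to -0.11 for Mt1 and from -0.32 to -0.23 for Mt2, whereas that of Fth1 turned to 0.03 after quantile normalization and 0.02 after the loess correction.

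Of the other genes of metal handling, a few stood further from 0 than these. Among 15 genes of zinc and copper handling at or above the floor, 10 were below 0 (55% of all genes were), with a median of -0.03. The only gene past 1.5-fold was Slc30a1, the zinc exporter of the plasma membrane and, like the metallothioneins, a target of MTF1, with 222 in the wild-type array against 143 in the mutant array, 1.55-fold lower, or -0.43 as the mean over its 2 probe sets. Mt3, a further metallothionein, was the highest at 0.16. Mtf1 itself had -0.08. Among 9 genes of iron and haem handling 6 were below 0 (against the same 55%), with a median of -0.07. Slc40a1, the iron exporter ferroportin, was the only gene past 1.5-fold, at 79.9 and 133, 1.67-fold higher. The mean over its 2 probe sets was 0.66. Aco1, the iron-sensing aconitase, was the lowest at -0.41, or -0.10 as the mean over its 3 probe sets.

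The remaining genes of the pathway showed no common direction. Of 8 further NRF2 targets at or above the floor, 5 were above and 3 below 0, with a median of 0.01. Osgin1, an oxidative stress-induced growth inhibitor, was 1.54-fold lower, with 223 in the wild-type array against 145 in the mutant array, and Ephx1, an epoxide hydrolase, was the highest at 0.39. Of 19 further genes of peroxide, thiol and NADPH metabolism 10 were below and 9 above 0, with a median of -0.01, from the p53 target Sesn1 at -0.36 to Glrx3 at 0.31. Of 4 genes of oxidant-producing enzymes at or above the floor 3 were above 0 and 1 below (25%, against 55% of all genes). Maoa, a monoamine oxidase, was the highest at 0.26 and Aox1 the lowest at -0.29. The other 5 of the 9 measured genes of this list, Nox4 and Cybb among them, lay below the floor. Over all the pathway lists outside the 41 genes, those of earlier paragraphs included, 51 of 83 genes at or above the floor were below 0. This was 61.4%, against 55% of all genes, with a median of -0.05. At 1.5-fold 1 of the 83 was higher and 2 were lower, where the shares of all genes were 1.7% and 2.02%.

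**Figure D4:**
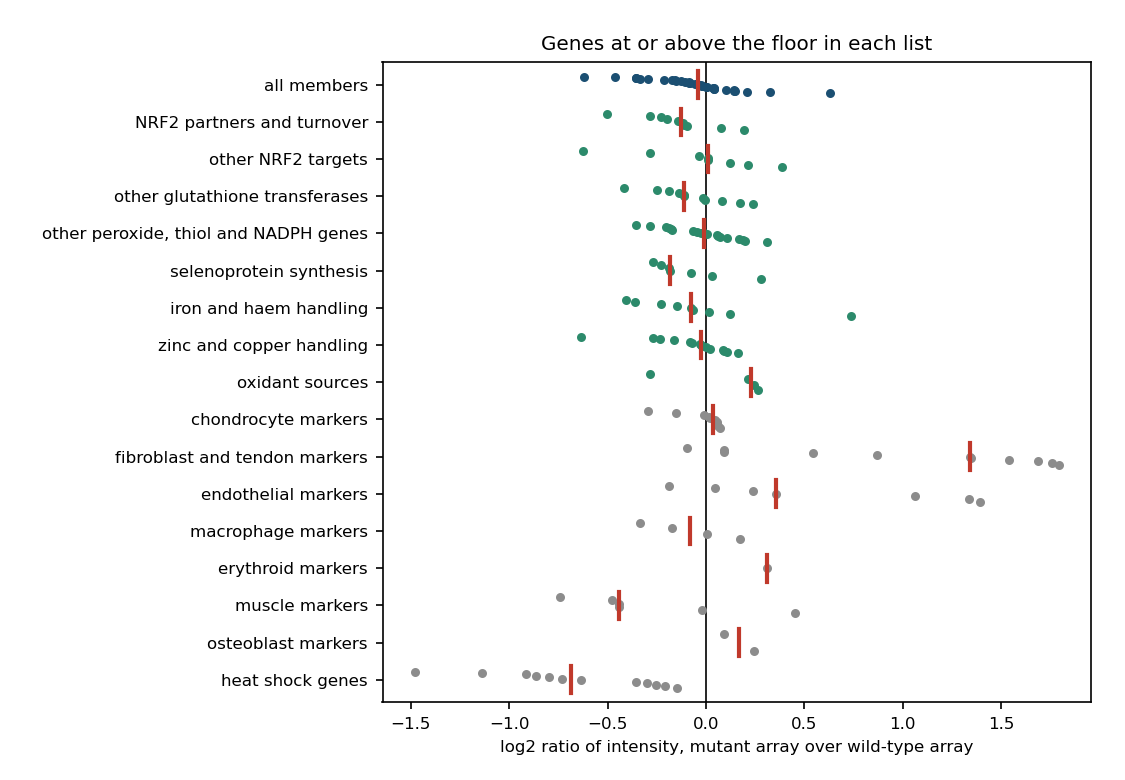
Ratio of mutant over wild-type intensity (log2) of each gene at or above the floor in the antioxidant set (blue), the other pathway lists (green) and the marker lists (grey), with the list median as a red bar; points within a list are spread vertically by rank. The antioxidant median of -0.04 lies near 0, while fibroblast and tendon markers (1.34) and heat shock genes (-0.68) lie far from it.

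Probe sets of a gene agreed in sign about as often for the antioxidant genes as elsewhere. Of 23 of them with 2 or more probe sets that reached the floor, 13 had probe sets of a common sign, or 56.5%, against 52.5% of 4878 genes over the whole array. The difference between the 2 brightest probe sets of a gene had an SD of 0.26 over those 4878 genes. The ratios of 8 of the 34 genes that reached the floor were larger in size than this SD, or 23.5%, against 21.9% of all genes. These were Gclc, Txnrd1, Cat, Hmox1, Srxn1 and Mt2, which were lower, and Mgst3 and Gstm1, which were higher. The SD measures disagreement of probes within these 2 arrays and not the spread between animals.

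**Figure D5:**
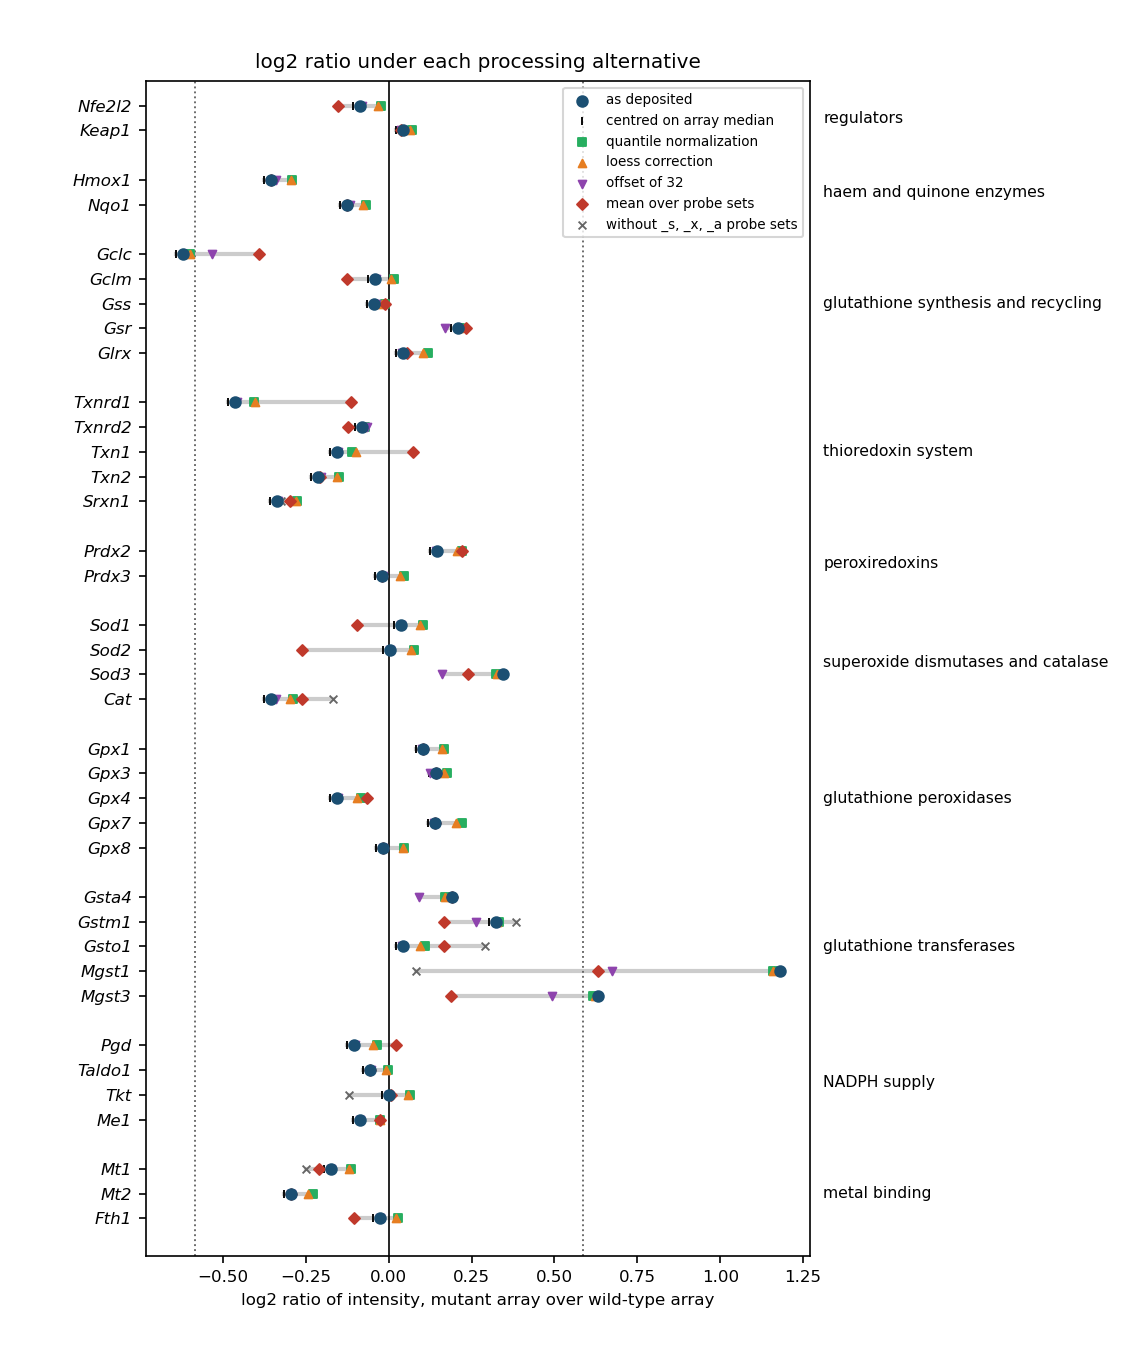
Ratio of mutant over wild-type intensity (log2) of each of the 37 genes as deposited (blue circle) and under 6 alternatives of scaling, offset and choice of probe set (5 for 7 genes, which have no probe set left without those of several transcripts), with a grey bar from the lowest to the highest value and 1.5-fold as dotted lines. Of the 37 genes, 28 keep their sign under the alternatives run for them, and the longest bars belong to Mgst1, Mgst3, Txnrd1 and Sod2.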

How the data were processed

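The authors deposited an intensity per probe set and array, on a linear scale. Their method is given only as MAS5, per the submitters' processing notes, with no version, settings or scaling. The log2 of 100% of the values had at most 5 decimals (within 0.05 of the last), which a summary made on the log2 scale would leave, so the method, and whether the arrays were scaled together, is unknown. Detection calls, a genome build and Affymetrix control probe sets were not used here. Whether the RNA pool of 5 littermates applies to each genotype is as the design text leaves it.

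From the deposited intensities, log2 was taken with no further normalization. Gene symbols came from the platform annotation at GEO. Entrez identifiers tied 34741 of the 34945 probe sets with 1 symbol to RefSeq genes (GRCm38.p6). The rest of the 45037, 932 with more than 1 symbol and 9160 unnamed here, were left out. The floor was the 50th percentile of mean log2 signal, 5.77. With 1 array per genotype, counts and medians were set beside those of all genes, with no test. The genes and lists were chosen with earlier results of these data known. Intensities are given for regulators, metal-binding genes, genes past 1.5-fold and the extremes of each role, and further genes were added after their values were seen; marker genes past 1.5-fold are given as counts; the ARE stretches and the Mt1 stretch were added to the rule that printed sequences. Sequences are RefSeq's. Alternatives were array centring, quantile normalization, loess (span 0.3), an offset of 32, other floors, probe set means, leaving out probe sets named _s_at, _x_at or _a_at, and a 2-fold threshold. Scripts were tested on simulated arrays. Python 3.11.15, numpy 2.4.6, pandas 2.3.3, statsmodels 0.14.6 and matplotlib 3.10.9 were used.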

Additional observations from a re-analysis of the deposited data

How the results depend on the processing

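The arrays have no replicates, so a count was taken as moved when it changed by over 1.5 times. Antioxidant genes at least 1.5-fold higher numbered 2 with no floor or with the floor at the 40th percentile, which let in Mgst1, and 0 with the offset of 32, with the mean over probe sets or at 2-fold. Those at least 1.5-fold lower numbered 0 with the offset of 32, with the mean over probe sets and at 2-fold. Of all genes at or above the floor, 422 differed 1.5-fold, against 277 with the mean over probe sets and 103 at 2-fold. Of the list medians, only those of the antioxidant genes and of the NRF2 target genes were run under the alternatives. Neither shifted by over 0.1, but both are themselves under 0.1 in size, so this says nothing about their sign. The median of the NRF2 target genes ran from -0.12 to -0.03. The median of the antioxidant genes ran from -0.06 to 0.01 and changed sign under quantile normalization, which also moved the median of all genes at or above the floor from -0.02 to 0.01. Of the 37 genes, 28 kept their sign under the 5 or 6 alternatives of scaling, offset and probe set choice run for each. The offset cannot turn a sign, and for a gene with 1 probe set the choice of probe set cannot either. The other 9 were Gclm, Prdx3, Gpx8, Fth1, Txn1, Sod1, Sod2, Pgd and Tkt. No paired analysis was possible because each genotype had 1 array. Mgst1, Sod3 and Gsta4 are limited by signals below the floor.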

Other observations

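Prdx1, the cytosolic peroxiredoxin and a known NRF2 target, had no probe set of its own, but 5 probe sets named it together with the predicted gene Gm21399. All 5 had ratios below 0, from -0.31 to -0.08, with a median of -0.19. The signal of the 2 genes cannot be told apart in these probe sets, so the values were kept out of the counts above.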
